A study of Mus musculus with 12 samples.

Results

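The Slc25 genes encode the mitochondrial carriers. Of the 52530 ATAC-seq peaks of the series, 183 were annotated to a gene whose symbol is Slc25a followed by a number, leaving out Slc25a1, Slc25a13, Slc25a15 and Slc25a20. These 183 peaks belonged to 36 of the 15001 genes in the table, and the rule that picks them uses gene names and no measured value. ATAC-seq counts the cuts of a transposase, which reaches DNA that is open, so a peak gives the accessibility of a 200 bp window. Nuclei came from female HEP-INTACT mice, in which hepatocyte nuclei carry a genetic tag that lets them be pulled from liver on beads. Food had been withheld from 3 mice for 16 h beginning at ZT12, when mice become active, and 3 control mice fed ad libitum were killed at the same time. Each mouse gave 1 library from fresh and 1 from frozen liver, so that there were 4 groups of 3 libraries: fresh fed, fresh fasted, frozen fed and frozen fasted. Age, strain and the driver of the tag were not known here. Positions are on mm10 as the authors' table gives them, and a peak counts for the gene it was annotated to, which need not be the gene it acts on.

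Mitochondrial carriers sit in the inner mitochondrial membrane, which small charged molecules do not cross by themselves. Most exchange one metabolite in the matrix for another in the cytosol, so they supply the matrix with nucleotides, phosphate, cofactors and amino acids. In the fasted liver, gluconeogenesis, urea synthesis and fatty acid oxidation are split between cytosol and matrix and depend on such exchange. A few family members lie in other membranes, such as Slc25a17 in peroxisomes and Slc25a46 in the outer mitochondrial membrane.

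The promoters of 3 carriers are shown because the results below turn on the peaks around them. RefSeq (GRCm38.p6) gave 35 start sites for 27 of the 36 genes, and each sequence below holds the 250 bases before a start site, 5′ to 3′. Capitals mark matches to the motifs named after the sequences, on either strand. For Slc25a25, 2 of 3 listed starts are shown, those with a peak. The outer start lies after chr2:32451471-32451720 and its inner start after chr2:32424067-32424316, both on the minus strand. The window of Slc25a42 is chr8:70212282-70212531 on the minus strand and that of Slc25a47 is chr12:108850879-108851128 on the plus strand.
Slc25a25, outer start: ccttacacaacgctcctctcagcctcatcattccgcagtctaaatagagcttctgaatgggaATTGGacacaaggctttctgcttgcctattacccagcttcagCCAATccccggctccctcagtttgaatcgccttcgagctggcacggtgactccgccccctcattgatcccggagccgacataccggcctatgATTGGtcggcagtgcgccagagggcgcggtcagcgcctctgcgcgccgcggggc
Slc25a25, inner start: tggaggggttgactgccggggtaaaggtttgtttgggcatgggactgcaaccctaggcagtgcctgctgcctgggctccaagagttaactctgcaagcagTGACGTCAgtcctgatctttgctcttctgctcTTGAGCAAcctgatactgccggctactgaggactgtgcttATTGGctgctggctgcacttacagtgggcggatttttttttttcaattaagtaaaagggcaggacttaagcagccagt
Slc25a42: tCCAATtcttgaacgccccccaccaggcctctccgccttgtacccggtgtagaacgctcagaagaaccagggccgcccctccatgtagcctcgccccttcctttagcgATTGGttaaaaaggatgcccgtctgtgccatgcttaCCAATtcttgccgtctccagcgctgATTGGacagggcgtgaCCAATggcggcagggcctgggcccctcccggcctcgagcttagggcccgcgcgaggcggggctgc
Slc25a47: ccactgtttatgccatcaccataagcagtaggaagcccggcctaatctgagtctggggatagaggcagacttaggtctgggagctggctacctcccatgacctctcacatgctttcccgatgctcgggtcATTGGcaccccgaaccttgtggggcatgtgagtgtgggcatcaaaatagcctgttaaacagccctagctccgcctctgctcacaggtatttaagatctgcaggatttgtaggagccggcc

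The inner start of Slc25a25 held the cAMP response element TGACGTCA beginning 150 bases before the start, a C/EBP motif (TTNNGCAA) at 118 and an inverted CCAAT box at 78. The outer start held 3 CCAAT boxes and neither of the other motifs. Slc25a42 had 5 CCAAT boxes in its window, and Slc25a47 had 1. CCAAT, the box bound by NFY, was found in 17 of the 35 carrier windows (48.6%) and in 33.8% of the 32851 windows of all promoters. TGACGTCA was in 2 carrier windows, those of Slc25a25 and Slc25a36, and in 1.55% of all windows. The E-box CACGTG was in 5 carrier windows (14.3%) and in 6.02% of all. The direct repeat GGNCANAGG was in 3 carrier windows (7.15% of all), TTNNGCAA in 3 (9.56%), the ETS motif CCGGAAG in 3 (6.91%) and the glucocorticoid motif ACANNNTGT in 2 (5.84%). The STAT motif TTCNNNGAA (7.02% of all) and the NRF1 motif GCATGCGC (2.26%) were each in 1. No carrier window held the FOXO motif TGTTTAC, the estrogen-related receptor motif TCAAGGTCA, the SREBP motif TCACNCCAC or the YY1 motif AAGATGGCG. No 2 matches of different motifs overlapped, but start sites that lie close together share part of their windows. A match is a run of letters and not a measured binding site.

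The libraries held 3692152 to 14506057 reads in peaks, and the median carrier peak had 66 to 264 reads. All 9 hepatocyte marker genes had peaks, 100 in all, with a mean of 145 normalized reads per peak. Of the marker genes of other liver cells, peaks were listed for 4 of 7 of endothelium, 2 of 7 of macrophages, 2 of 7 of stellate cells, 3 of 5 of bile duct and 1 of 6 of lymphocytes. Those with peaks were Pecam1, Cdh5, Kdr, Stab2, Adgre1, Csf1r, Reln, Col1a1, Epcam, Sox9, Spp1 and Ptprc. Clec4f, Lrat, Krt19 and Cd3e were among those without. Mean normalized reads per peak were 88.5 for endothelium, 52.6 for macrophages, 83.1 for stellate cells and 79.7 for bile duct. The single lymphocyte peak, at Ptprc, had 167.

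By position, 70 carrier peaks were near a gene start, meaning within 1 kb, and 113 were distal. The authors' annotation placed 59 in introns, 51 between genes, 49 at promoters, 13 at transcript ends, 6 in 3′ UTRs, 4 in 5′ UTRs and 1 in an exon. Transcript ends held 7.10% of the carrier peaks and 1.80% of all peaks. Of the 113 distal peaks, 37 lay in the body of their own gene, 34 in that of another gene only and 42 in none. 13 pairs of windows overlapped, so 25 of the peaks share reads with another carrier peak. No peak was listed for the family members Slc25a2, Slc25a4, Slc25a18, Slc25a24, Slc25a41, Slc25a52, Slc25a53 and Slc25a54, which are not analysed here.

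A peak within 1 kb of the start was present for 32 of the 36 genes, and for Slc25a31, Slc25a36, Slc25a37 and Slc25a43 it was not. The level given here is normalized reads in the 200 bp window nearest to the start, averaged over 12 libraries. It was highest at Slc25a3, the phosphate carrier, with a mean of 491.8. Slc25a32, which carries folate and FAD, had 449.3. The lowest were Slc25a26, the S-adenosylmethionine carrier, at 82.2 and Slc25a45 at 74.7. In none of the 31 pairs of neighbours in this order were the 12 libraries of one gene separate from those of the next. The median start peak of the carriers was at 312 normalized reads, compared with 195 for the start peaks of 11082 genes.

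**Figure D1:**
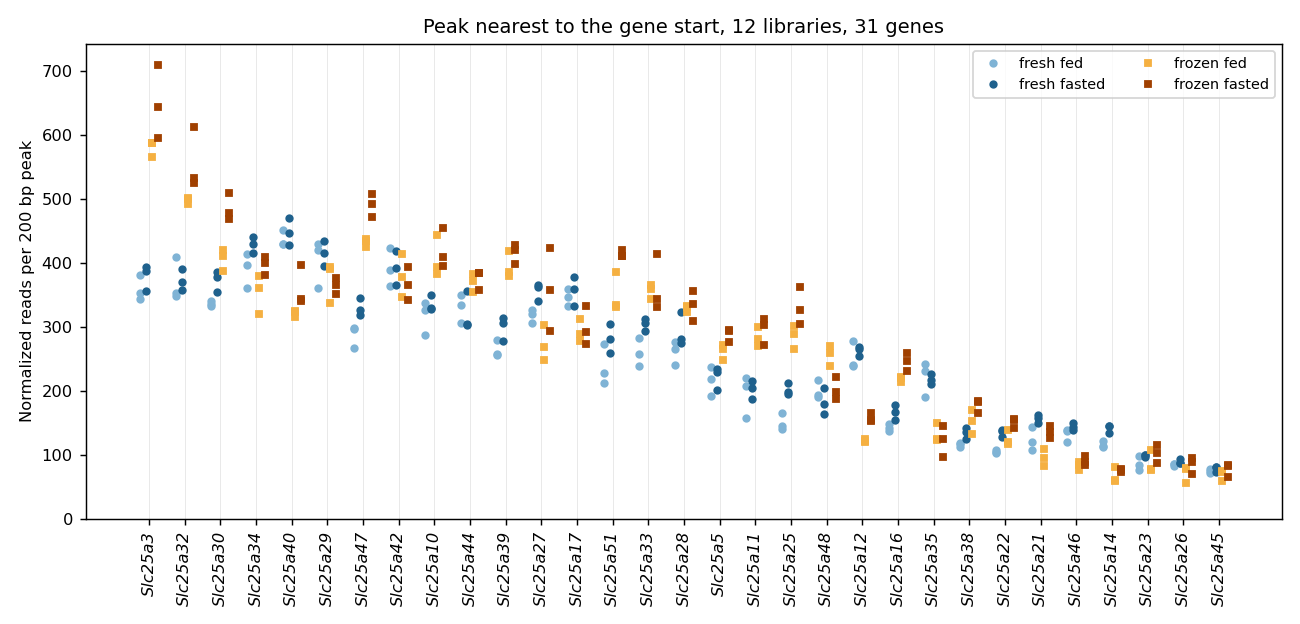
Normalized reads per 200 bp peak (vertical axis, from 0) at the peak nearest to the start of 31 carrier genes (horizontal axis, ordered by mean level). Each point is 1 of 12 libraries, in 4 groups of 3. Levels run from 491.8 at Slc25a3 to 74.7 at Slc25a45, and several genes, among them Slc25a12 and Slc25a3, show fresh and frozen libraries apart.

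Fasting moved carrier peaks in both directions, and the large changes lay away from gene starts. Averaged over fresh and frozen liver, 41 of 183 peaks rose and 23 fell at an adjusted p under 0.05 (limma, 3 mice against 3), while 119 were not called. Among all peaks 16.5% were called higher and 18.1% lower, against 22.4% and 12.6% of the carrier peaks. The median log2 difference of the carrier peaks was 0.11 and that of all peaks 0.05. These counts depend on the scaling. When libraries were scaled to the median of peaks near gene starts, the median of all peaks moved by -0.124. The carrier counts then became 21 higher and 32 lower. The carrier median moved likewise, to -0.011 against -0.076 for all peaks, a gap of 0.065 in both scalings. Shares of all features called in that scaling are not given, here or below. In that scaling 21 of the 41 rises and all 23 falls were still called, 9 further peaks were called lower, and no rise became a fall. The p-values measure the spread between these 6 mice.

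Beyond 1 kb 26 carrier peaks rose and 19 fell of 113 (all distal peaks: 14.8% higher, 25.4% lower). Within 1 kb 15 rose and 4 fell of 70 (all such peaks: 19.7% higher, 4.59% lower). All 8 peaks that rose and all 4 that fell by more than 1 on the log2 scale were distal. This is not particular to carriers, since all peaks of the series also spread less near starts. Their quartiles were 0.014 and 0.241 within 1 kb and -0.411 and 0.195 beyond. The share of all peaks above 1 in size was not counted. In 15 peaks all 6 fasted libraries lay above all 6 fed libraries (5.16% of all peaks), and in 9 they lay below (7.79% of all peaks). Several peaks below were named by a rule that requires such a lack of overlap, for fasting or for freezing. Its mention at those peaks is no separate evidence. 8 genes had peaks called in both directions, 7 had only rises, 7 only falls and 14 had no called peak. Those 14 genes had 25 peaks together. Carrier genes had from 1 to 17 peaks, and the like counts over all genes are not given. The log2 difference had the same sign in fresh and in frozen liver for all 64 called peaks. The call was made on the average of both, which favours peaks of equal sign, so this is no separate evidence. Fewer nuclei with an open site and less opening in each nucleus cannot be told apart in these bulk libraries.

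**Figure D2:**
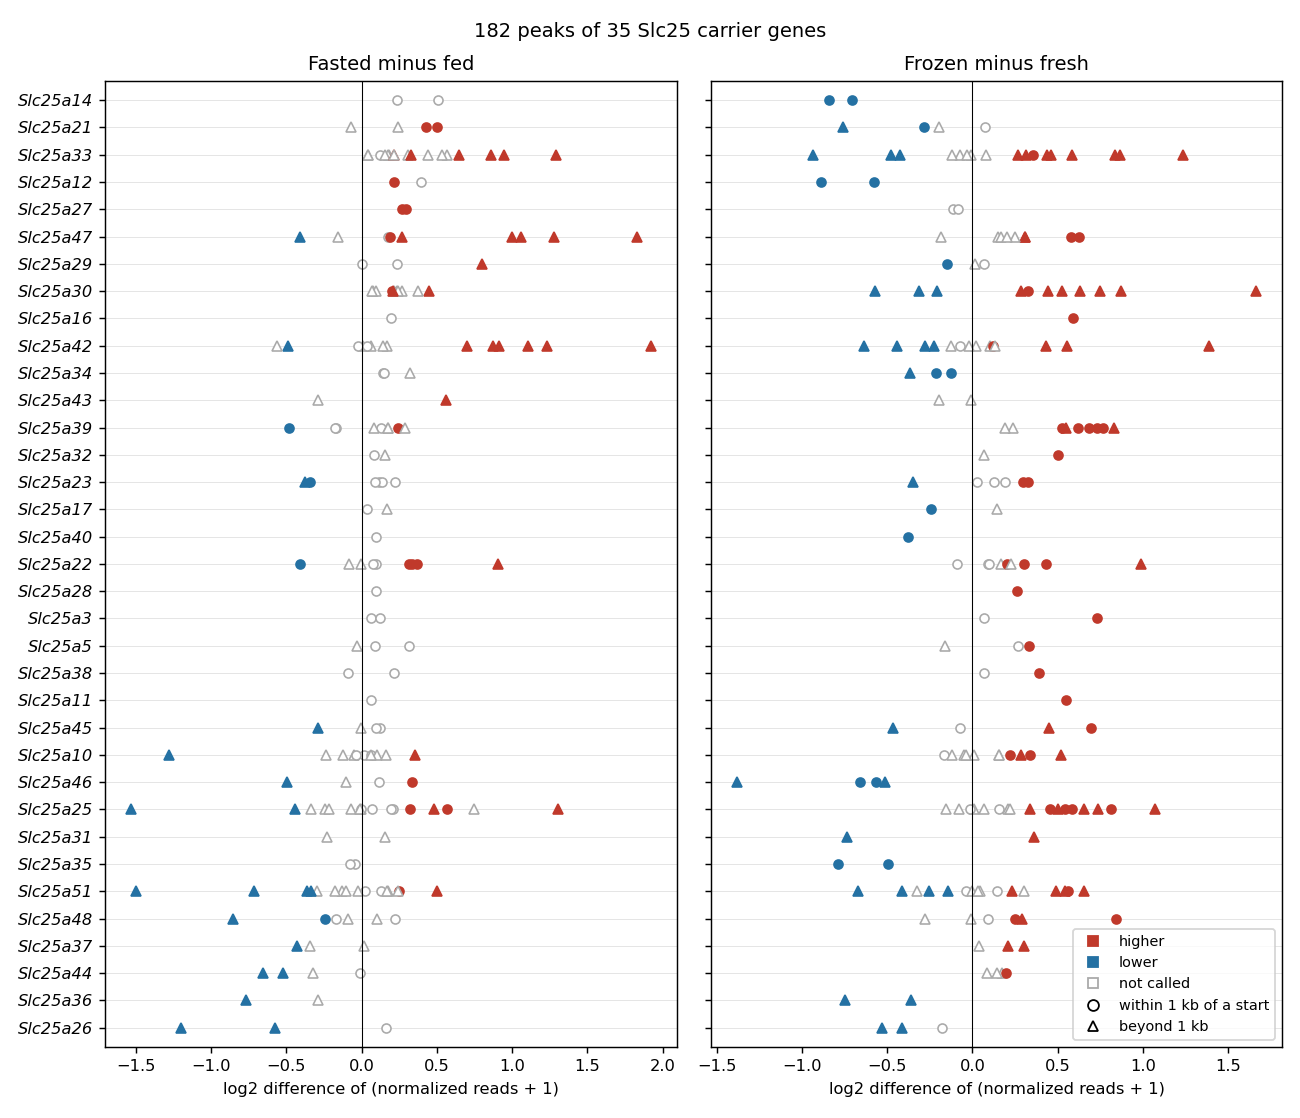
Log2 difference of normalized reads + 1 (horizontal axes) for 182 peaks of 35 genes (vertical axis, ordered by median fasting difference), fasted minus fed on the left and frozen minus fresh on the right. Filled symbols passed an adjusted p of 0.05, circles lie within 1 kb of a start and triangles beyond. Fasting gave 41 higher and 23 lower peaks (21 and 32 when scaled to peaks near gene starts), and all 12 called changes above 1 in size are triangles.

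Among carriers of cofactors and nucleotides, 14 of 58 peaks rose and 8 fell with fasting, and this group held the largest change. Slc25a42 imports coenzyme A into the matrix in exchange for adenine nucleotides. 6 of its peaks, between 4.41 and 8.84 kb upstream of the start on chromosome 8, rose together. The largest lies 6.98 kb upstream (70219165-70219365), within 0.907 kb of the neighbouring gene Armc6, and the last 3 lie in Armc6 itself. Its fed libraries had 33.7, 29.2 and 39.4 normalized reads from fresh and 45.3, 27.1 and 49.1 from frozen liver. Its fasted libraries had 86.9, 141.8 and 115.3 from fresh and 142.0, 245.0 and 160.2 from frozen liver. Every fasted library was above every fed one, in both preparations. The mean of the 3 mice rose from 37.3 ± 8.3 to 148.5 ± 40.6 (SD, n = 3), a log2 difference of 1.93 ± 0.22 (SE, limma adjusted p = 0.000337), the largest of all carrier peaks.

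The peak 4.41 kb upstream of Slc25a42, intergenic, differed both with fasting and with freezing. Fresh libraries had 71.9, 69.0 and 71.6 normalized reads in fed and 144.5, 125.2 and 128.8 in fasted mice, and frozen libraries 201.3, 159.3 and 214.6 in fed and 325.8, 331.3 and 373.9 in fasted mice. Within each preparation the fasted libraries were higher without overlap, and every frozen library exceeded every fresh one. The fasting difference was 0.87 ± 0.09 (limma adjusted p = 0.000237). The start peak of Slc25a42, whose sequence is given above, was level by contrast, with 363.4 to 423.6 normalized reads in fresh and 341.3 to 414.5 in frozen liver. Its log2 difference was -0.02 ± 0.06 (limma adjusted p = 0.794). One intron peak of the gene, 17.9 kb into it, fell by 0.49.

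Slc25a33, which carries pyrimidine nucleotides, had 17 peaks, of which 6 rose and none fell, with 11 not called. 5 of the 6 rises lay upstream in the body of the predicted gene Gm42354, though annotated as intergenic by the authors. At 24.6 kb upstream (chromosome 4, 149798731-149798931) fed libraries had 134.9, 102.2 and 140.0 normalized reads from fresh and 89.3, 106.7 and 141.1 from frozen liver, and fasted libraries 211.0, 202.1 and 231.7 from fresh and 195.7, 229.3 and 304.9 from frozen liver. Fed and fasted libraries did not overlap. The difference was 0.94 ± 0.13 (limma adjusted p = 0.000878). The adjoining window at 24.8 kb differed by 1.29 ± 0.20 (adjusted p = 0.00155), and the start peak by 0.12 without a call.

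Slc25a51 carries NAD into mitochondria. Of its 16 peaks 2 rose and 4 fell. The largest fall lay 13.3 kb upstream, in the predicted gene Gm46852 and 1.23 kb from Shb, where fed libraries had 61.2, 62.4 and 65.7 normalized reads from fresh and 60.8, 55.7 and 65.7 from frozen liver. Fasted libraries had 25.1, 33.8 and 21.5 from fresh and 21.8, 25.3 and 8.9 from frozen liver, all below the fed ones. The log2 difference was -1.50 ± 0.26 (limma adjusted p = 0.00238). This was the peak with the lowest mean level of all carrier peaks. The start peak of Slc25a51 was higher in fasted mice by 0.25 ± 0.08 (adjusted p = 0.0402), a call lost when scaled to peaks near gene starts (adjusted p = 0.302).

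Slc25a26, which brings S-adenosylmethionine into mitochondria, had 2 lower peaks and no higher one of 3. In its intron 5 the fed mice averaged 59.1 ± 1.9 normalized reads and the fasted mice 26.0 ± 6.7 (SD, n = 3), a difference of -1.20 ± 0.21 (limma adjusted p = 0.00272). Slc25a36, a second pyrimidine nucleotide carrier, fell by 0.77 at an intergenic peak 29.6 kb upstream. Slc25a16, Slc25a17 and Slc25a32 had no called peak.

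**Figure D3:**
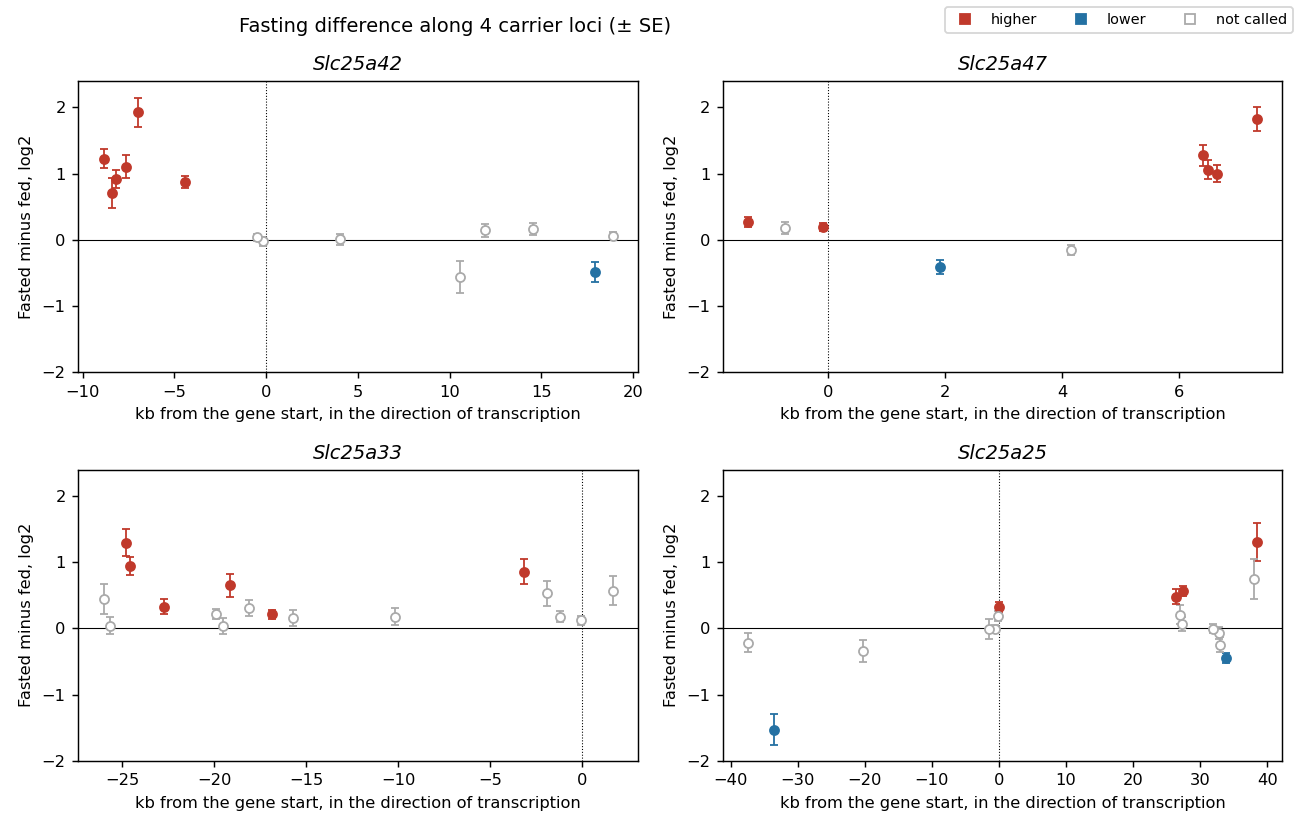
Fasted minus fed log2 difference ± SE (vertical axes) against the distance of each peak from the gene start in kb, in the direction of transcription (horizontal axes), for Slc25a42, Slc25a47, Slc25a33 and the outer start of Slc25a25. Red peaks were called higher, blue lower and open ones were not called. The 6 upstream peaks of Slc25a42 and 4 peaks past the end of Slc25a47 lie above 0.7 on the log2 scale, while the start peaks of these genes lie at -0.02 and 0.19.

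Less well characterised carriers had 8 rises and 3 falls among 19 peaks, with 5 of the rises beyond 1 kb at Slc25a47, a carrier found mainly in liver. At Slc25a47, 4 peaks 6.41 to 7.33 kb past its start, beyond the end of its transcript and 2.50 to 1.57 kb from the gene Wars, rose together. The first 3 of these windows overlap each other in turn. At 7.33 kb (chromosome 12, 108858356-108858556) fed libraries had 45.3, 23.9 and 31.5 normalized reads from fresh and 27.4, 20.7 and 30.7 from frozen liver. Fasted libraries there had 110.6, 115.3 and 97.2 from fresh and 91.0, 116.8 and 104.6 from frozen liver, well clear of the fed ones. The difference was 1.83 ± 0.19 (limma adjusted p = 0.000244). At 6.41 kb it was 1.28 ± 0.16 (adjusted p = 0.000507), also without overlap. An intron 1 peak of the same gene moved the other way, from 221.9 ± 12.1 to 168.1 ± 27.8 normalized reads (SD, n = 3), or -0.41 ± 0.11 on the log2 scale (adjusted p = 0.0174). The start peak of Slc25a47 was higher by 0.19 ± 0.06 (adjusted p = 0.0284, and 0.431 when scaled to peaks near gene starts).

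Carriers of adenine nucleotides and phosphate had 4 rises and 4 falls among 30 peaks. All 4 rises were at Slc25a25, a calcium-regulated exchanger of ATP-Mg for phosphate, and the falls were shared by Slc25a25 and Slc25a23, a close relative. Slc25a3, Slc25a5, an ADP/ATP carrier, and Slc25a31, an ADP/ATP carrier of the testis, had no called peak. At the inner start of Slc25a25 the TGACGTCA motif lies in the peak 32424156-32424356, which differed by 0.07 ± 0.10 without a call. The neighbouring peak 32423891-32424091 on chromosome 2 lies mostly past that start and does not hold the motif. Its fed libraries had 132.2, 100.9 and 123.5 normalized reads from fresh and 171.5, 187.9 and 154.2 from frozen liver. Its fasted libraries had 166.3, 167.8 and 186.5 from fresh and 263.0, 234.5 and 273.7 from frozen liver. Fasted libraries were higher without overlap within each preparation. The difference of 0.57 ± 0.08 (limma adjusted p = 0.000954) was the largest rise within 1 kb of any carrier start. At the outer start it was 0.32 ± 0.07 (adjusted p = 0.00979, and 0.0927 when scaled to peaks near gene starts). Whether the changes at both starts differ from each other was not tested.

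Distal peaks of Slc25a25 moved apart. An intergenic peak 33.6 kb upstream had 236.1, 249.6 and 158.4 normalized reads in fresh fed, 223.9, 258.0 and 162.1 in frozen fed, 92.3, 89.3 and 54.2 in fresh fasted and 79.2, 90.7 and 44.5 in frozen fasted libraries. All fasted libraries lay below all fed ones. It fell by 1.53 ± 0.23 on the log2 scale (limma adjusted p = 0.00128). A peak 11.1 kb past the inner start rose from 52.2 ± 22.8 to 122.7 ± 18.1 normalized reads (SD, n = 3), a difference of 1.31 ± 0.28 (adjusted p = 0.00657).

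Carriers of amino acids and glutathione had 7 rises and 6 falls among 36 peaks. At Slc25a22, a glutamate carrier, 4 of 9 peaks rose and 1 fell. Its start peak, 0.014 kb from a start, rose by 0.31, a call lost when scaled to peaks near gene starts (limma adjusted p = 0.126). Another peak lies 0.042 kb from a second start, at 141435233-141435433 on chromosome 7. There fed libraries had 194.4, 203.1 and 200.4 normalized reads from fresh and 175.1, 207.1 and 208.5 from frozen liver. Fasted libraries had 237.5, 236.9 and 238.5 from fresh and 285.8, 274.6 and 264.8 from frozen liver. Fasted and fed libraries did not overlap, and the difference was 0.37 ± 0.07 (limma adjusted p = 0.00343). An intron 5 peak rose by 0.91 ± 0.13 (adjusted p = 0.00114), whereas a peak in intron 3 fell by 0.41 ± 0.07 (adjusted p = 0.00212). Slc25a29, a carrier of basic amino acids, had 1 intron peak that rose by 0.80 ± 0.11 (adjusted p = 0.00081). Slc25a12, an aspartate-glutamate carrier, had a start peak higher by 0.21 (limma adjusted p = 0.0412, and 0.411 when scaled to peaks near gene starts). The glycine carrier Slc25a38 had no call.

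Slc25a44, which carries branched-chain amino acids, had 2 lower peaks and no higher one of 4. Its intron 1 peak had 333.7, 343.9 and 274.7 normalized reads in fresh fed, 411.0, 371.1 and 285.6 in frozen fed, 224.6, 213.5 and 253.1 in fresh fasted and 223.9, 215.3 and 262.6 in frozen fasted libraries. No fasted library reached the lowest fed one, and the difference was -0.52 ± 0.11 (limma adjusted p = 0.00594). Slc25a48, linked to choline transport but counted here with the amino acid carriers, fell by 0.85 at an intron 2 peak and by 0.24 at its start. Slc25a39, a glutathione carrier, rose by 0.24 near its start (adjusted p = 0.032, and 0.287 when scaled to peaks near gene starts) and fell by 0.48 at a window 0.534 kb upstream. Its paralogue Slc25a40 had 1 peak, without a call.

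Carriers of di- and tricarboxylates had 3 rises and 1 fall among 21 peaks. Slc25a10, the dicarboxylate carrier, held the fall, 2.28 kb into the gene in intron 1. Its fed libraries had 115.4, 85.0 and 78.9 normalized reads from fresh and 101.3, 92.4 and 72.7 from frozen liver, and its fasted libraries 32.6, 52.5 and 29.4 from fresh and 41.9, 38.4 and 28.9 from frozen liver. The libraries of the fed and fasted mice were separate, with a difference of -1.28 ± 0.20 (limma adjusted p = 0.00135). The start peak of Slc25a10 was not called. Slc25a21, an oxodicarboxylate carrier, rose by 0.43 and 0.50 at both peaks near its start, the second not called when scaled to peaks near gene starts (adjusted p = 0.1001). Slc25a11, the oxoglutarate carrier, Slc25a34 and Slc25a35 had no called peak. Slc25a35 was counted in this group though its substrate is not well known.

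Of the iron carriers, Slc25a37 (mitoferrin 1) had 1 lower peak of 3, at the end of the transcript, and Slc25a28 (mitoferrin 2) had no call. The Slc25a37 peak had 197.0, 185.9 and 199.8 normalized reads in fresh fed, 220.4, 203.9 and 241.8 in frozen fed, 138.4, 164.2 and 126.6 in fresh fasted and 174.7, 176.1 and 149.1 in frozen fasted libraries. Fed libraries were all above fasted ones, and the difference was -0.43 ± 0.09 (limma adjusted p = 0.00697). The relatives of the uncoupling proteins, Slc25a14, Slc25a27 and Slc25a30, had 5 rises and no fall among 15 peaks, from 0.20 to 0.45 on the log2 scale, and 4 of the 5 were not called when scaled to peaks near gene starts. Of these, the 2 peaks of Slc25a27 overlap in part and so share reads.

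The summed marker peaks of macrophages, stellate cells and bile duct were also lower in fasted than in fed libraries, without overlap within either preparation. Single peaks did not all follow the sums. Of the 4 bile duct peaks the 2 of Spp1 were called lower, and those of Epcam and Sox9 had log2 differences of 0.28 and 0.17 without a call. Of 15 endothelial peaks 6 were called lower, 4 of them at Cdh5, and 3 higher, 2 of them at Stab2. Summed over 2 macrophage peaks, normalized reads were 119 to 161 in fresh fed, 81.4 to 108 in fresh fasted, 89.3 to 123 in frozen fed and 55.6 to 87.2 in frozen fasted libraries. Over 4 stellate cell peaks the sums were 339 to 421, 275 to 329, 336 to 443 and 240 to 318 in the same order. Over 4 bile duct peaks they were 328 to 354, 281 to 318, 340 to 369 and 249 to 315. Endothelial peaks, 15 in all, summed to 1326 to 1413, 1253 to 1287, 1248 to 1372 and 1268 to 1387. The single lymphocyte peak ranged from 143 to 162, 136 to 232, 121 to 157 and 137 to 232. The part of these cells in the carrier results was not tested.

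**Figure D4:**
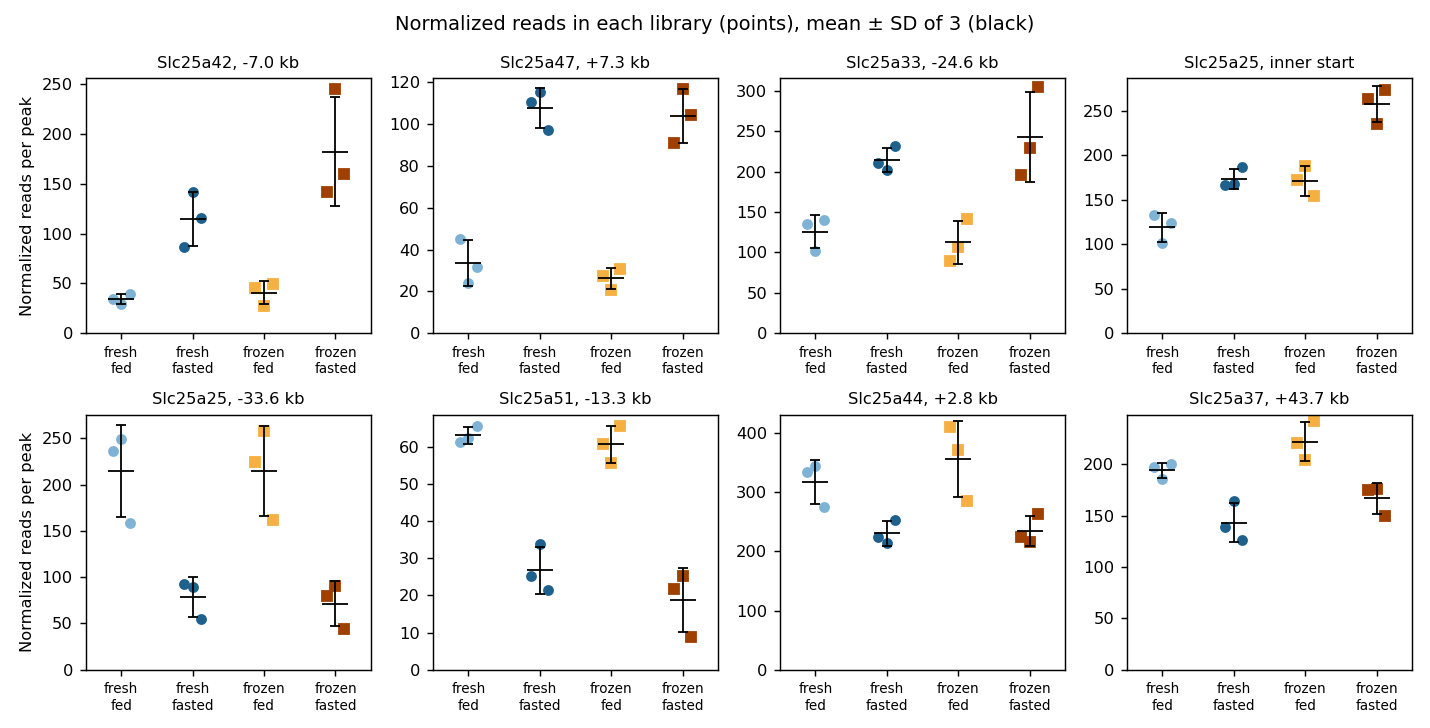
Normalized reads per peak (vertical axes, from 0) in each of 12 libraries (points, 3 per group on the horizontal axis) with mean ± SD of 3 in black, at 8 peaks of Slc25a42, Slc25a47, Slc25a33, Slc25a25, Slc25a51, Slc25a44 and Slc25a37. The number after the gene is the distance from its start in kb. Fasted libraries are above fed ones within each preparation in the first 4 panels and below them in the last 4.

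With peaks summed per gene, 10 of 36 carriers were higher in fasted mice and 4 lower (18.9% and 16.2% of all 15001 genes; limma on log2 of the sum + 1). The largest rise was that of Slc25a14 at 0.37 ± 0.13 (adjusted p = 0.0452), though neither of its peaks was called alone in the average (1 was in fresh liver). Slc25a33 differed by 0.35 ± 0.06, Slc25a47 by 0.31 ± 0.05 and Slc25a42 by 0.28 ± 0.05. The others were Slc25a12, Slc25a21, Slc25a27, Slc25a29, Slc25a30 and Slc25a34, from 0.16 to 0.28. The 4 lower sums were Slc25a36 at -0.44 ± 0.08, Slc25a26 at -0.36 ± 0.08, Slc25a44 at -0.28 ± 0.06 and Slc25a37 at -0.25 ± 0.07. When scaled to peaks near gene starts, 2 sums were called higher. At the 32 start peaks 8 rose and 1 fell, close to the background of 19.2% and 3.47% for the start peaks of all genes, and that scaling left 1 in each direction.

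Fresh and frozen liver gave like counts when tested apart. In fresh liver 35 carrier peaks rose and 19 fell (11.4% and 16.1% of all peaks), and in frozen liver 33 rose and 21 fell (12.8% and 15% of all peaks). Scaled to peaks near gene starts, 19 rose and 27 fell with fresh tissue, and 18 rose and 30 fell with frozen tissue. 21 peaks rose and 14 fell in both preparations (7.06% and 12.1% of all peaks), and none was called in opposite directions. Both comparisons draw on the same mice. The authors' deposited table calls 27 carrier peaks higher and 17 lower with fresh tissue (8.93% and 14.1% of all peaks), and 35 higher and 21 lower with frozen tissue (13.5% and 16% of all peaks). For the Slc25a42 peak 6.98 kb upstream the authors' deposited table gives a log2 fold change of 1.73 with fresh tissue and 2.15 with frozen tissue. A dependence of the fasting difference on the preparation was called in 0 of the 183 peaks (0% of all peaks, limma interaction term). At an unadjusted p under 0.05 there were 4 carrier peaks (2.19%) and 5.14% of all peaks. On simulated data this test found only 1.49% of 1.5-fold and 40.9% of 2-fold changes. Uncalled peaks therefore do not show that the fasting difference was equal in both preparations. With the libraries of a mouse paired as a replicate block, the interaction was called in 0 carrier peaks and in 395 of all peaks. The share at an unadjusted p under 0.05 was then 13.1% both of the carrier peaks (24) and of all peaks.

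More carrier peaks were called for freezing than for fasting, in a test over 12 libraries rather than 6 mouse means. Accessibility was higher after freezing at 73 of them and lower at 39 (28.7% and 32.8% of all peaks; limma adjusted p under 0.05, feeding state as covariate). This fit, which also gave the p-values for freezing below, did not pair the fresh and frozen libraries of a mouse. Counts from the paired fit are given in the last section. The median log2 difference was 0.14 for the carriers and -0.05 for all peaks. In 42 peaks all 6 frozen libraries exceeded all 6 fresh ones (15.2% of all peaks), and in 14 they were all lower (11.7%). Near gene starts 34 were higher and 14 lower of 70 (37.6% and 27.7% of all such peaks), and of the 32 start peaks 18 were higher and 9 lower (37.5% and 31.6% for all genes). Only Slc25a27 and Slc25a43 had no peak called for freezing. 43 carrier peaks were called neither for fasting nor for freezing. Depth differed with preparation but overlapped, with 5852508 to 14506057 reads in peaks in the 6 fresh and 3692152 to 9203786 in the 6 frozen libraries. Its part in the result was not tested.

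The largest increase with freezing was at an intergenic peak 6.25 kb upstream of Slc25a30, a relative of the uncoupling proteins. Fresh libraries had 63.0 to 83.6 normalized reads with a median of 77.1, and frozen libraries 188.2 to 302.1 with a median of 232.7. The 2 sets were far apart, and the difference was 1.67 ± 0.10 (limma adjusted p = 1.18e-09). Slc25a33 at 22.7 kb upstream had 63.0 to 78.7 in fresh and 125.1 to 211.8 in frozen libraries, medians 74.5 and 184.0, without overlap. An intron 5 peak of Slc25a25 had 136.7 to 144.7 in fresh and 276.4 to 323.3 in frozen libraries, medians 141.5 and 295.8, and did not differ detectably with fasting (log2 difference -0.01 ± 0.07). In Slc25a48 a peak in intron 1 was higher by 0.85 ± 0.07.

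The largest decrease with freezing, and the single one above 1 in size on the log2 scale, was at a 3′ UTR peak of Slc25a46, a protein of mitochondrial shape. Fresh libraries had 124.8 to 141.3 normalized reads there (median 128.5) and frozen ones 42.7 to 62.1 (median 47.3), far apart, with a log2 difference of -1.39 ± 0.10 (limma adjusted p = 7.67e-09). Of the 39 carrier peaks lower after freezing, 14 lay within 1 kb of a start and 25 beyond. Some start peaks were among the 14. At Slc25a12 the fresh libraries had 239.2 to 277.5 normalized reads (median 260.2) and the frozen ones 119.2 to 164.7 (median 138.5). Fresh and frozen did not overlap, and the log2 difference was -0.89 ± 0.07 (limma adjusted p = 1.51e-08). At Slc25a35, whose substrate is not well known, the start peak had 189.9 to 242.3 in fresh and 95.7 to 150.1 in frozen libraries, a difference of -0.79 ± 0.10 (adjusted p = 2.16e-06). Slc25a40 fell by 0.38 at its start, Slc25a42 by 0.64 at an intron 1 peak and Slc25a46 by 0.57 in intron 1. By contrast, the start peak of Slc25a3 was higher, with 343.0 to 393.6 in fresh and 565.4 to 709.9 in frozen libraries, a difference of 0.73 ± 0.05 (adjusted p = 4e-09).

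Other genes of mitochondrial transport, taken from a fixed list, gave these counts for fasting. Of all peaks of the series, 16.5% were called higher and 18.1% lower in the same test. Carrier genes outside the rule had 9 rises and 6 falls among 33 peaks, and all 4 peaks of Ucp3, an uncoupling protein, rose. The pyruvate carrier genes Mpc1 and Mpc2 had 1 rise and no fall among 12 peaks. The outer membrane pores Vdac1, Vdac2 and Vdac3 had 3 rises and 2 falls among 16. Enzymes of the malate-aspartate shuttle, whose carriers include Slc25a11 and Slc25a12, had 3 rises and 4 falls among 24, and 3 of the falls were at Mdh1. The chaperones and translocase that insert carriers into the inner membrane had 3 rises and 2 falls among 19 peaks.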

How the data were processed

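ATAC-seq libraries were made from about 25000 nuclei each with 12 PCR cycles, per the labels' protocols. DESeq2, HOMER, SAMtools, BWA 0.7.5a-r405 and the build mm10 were used, per the submitters' processing notes, in roles not stated. Peak calling, duplicate removal and a shift for the transposase are likewise not given in the sources used. The authors deposited signal values, reads per 200 bp peak divided by 1 size factor per library, for 12 libraries. The authors' log2 fold changes for fasting, and the p-values adjusted by the authors, appear only where the authors' deposited table is named. Depths were read from the step between values, taken as 1 read. Counting error is the least error these depths allow.

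Values were analysed as log2(value + 1) without a filter, since count models need whole reads, in R 4.3.3 with limma 3.58.1. Tests were two-sided with a trended prior, and p-values were adjusted after Benjamini and Hochberg across the 52530 peaks and called under 0.05. Columns carry letters, not mouse numbers. Same-letter columns of one feeding state deviated together (r from 0.329 to 0.640 in 6 pairs, highest other r 0.0213), so each letter was treated as 1 mouse and its fresh and frozen log2 values were averaged for the fasting test. This pairing comes from the data. Freezing and the interaction were tested over 12 libraries, without pairing those of a mouse unless the replicate block is named. Tested on simulated data with 200 changed peaks of 52530, the fasting average found 16.4% of 1.25-fold, 82.1% of 1.5-fold and 98.5% of 2-fold changes. In the data far more peaks were called for fasting (16.5% higher and 18.1% lower). The adjustment of p-values depends on that share, so these rates need not hold there.

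Alternatives were another pseudocount (5), leaving out the lowest 25% of peaks, scaling to the median of peaks near gene starts, quantile normalization, the replicate block, gene sums without peaks near starts and leaving out each mouse. Members and gene lists were chosen with earlier results of these data known. Peaks named are start peaks, up to 8 each way for fasting (3 each way met the rule) and 5 each way for freezing, by size among called peaks above the median level without overlap and 1 per gene, and the peak of lowest p for up to 3 genes per role group. Further peaks were named for their size, or as neighbours of these, after their values were seen. One carrier gene and 1 pathway list are not reported here by name or in the plots.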

Additional observations from a re-analysis of the deposited data

Results flagged for a closer look

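At 2 carrier peaks, fasted libraries moved in opposite ways in fresh and in frozen liver without overlap (1.09% of carrier peaks, against 0.23% or 121 of all peaks). At a 3′ UTR peak of Slc25a46, 27.2 kb past the start, fresh libraries had 126.9, 124.8 and 128.1 normalized reads in fed and 131.6, 128.8 and 141.3 in fasted mice. Frozen libraries there had 53.6, 62.1 and 48.2 in fed and 46.4, 42.7 and 44.5 in fasted mice. The interaction was -0.361 ± 0.187 on the log2 scale (limma adjusted p = 0.975), which was not called. At a peak 4.94 kb upstream of Slc25a51, in the predicted gene Gm46852, fresh libraries had 148.2, 152.7 and 133.4 in fed and 131.6, 112.7 and 126.6 in fasted mice, and frozen libraries 196.6, 205.5 and 192.7 in fed and 225.7, 213.6 and 235.9 in fasted mice. Its interaction was 0.408 ± 0.131 (limma adjusted p = 0.859), also not called.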

How the results depend on the processing

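All 64 peaks called for fasting kept their sign in every alternative that tested them, and 32 were called in each (19 rises, 13 falls). For freezing, 87 of 112 were called in each, and 110 kept their sign. Scaling to peaks near gene starts lowered the rises to 21 for the fasting average, 19 in fresh and 18 in frozen liver, and 2 for gene sums. Without the lowest 25% of peaks 15 fell in the average and 11 in fresh liver, with fewer peaks tested. Gene sums without peaks near starts gave 5 higher and 7 lower of 25 genes. Shares of all features called for fasting or freezing in these alternatives are not given. With the replicate block, pairing the letters, the average gave 48 rises and 28 falls and freezing 83 and 41; no count moved by over 1.5 times. Leaving out 1 mouse gave 27 to 37 rises and 16 to 23 falls for the average, 25 to 30 and 13 to 22 in fresh, 20 to 32 and 12 to 18 in frozen liver, 65 to 73 and 34 to 36 for freezing, and 6 to 10 and 3 to 5 for gene sums. The average had 27 rises without fed A or without fasted A. Frozen liver had 20 rises without fed B, and 13, 12, 12 and 13 falls without fed A, fed B, fed C and fasted A. Gene sums had 6 rises without fed B. The cause of these moves was not tested. For 26 peaks, those named by size among peaks without overlap and those with called fasting differences above 1 in size, 6 of 401 refits lost the call, at Slc25a22 in fresh and Slc25a37 in frozen liver. Weaker named peaks lost it more often, and Slc25a12 at its start was called for fasting in 2 of 11 alternatives. Depth limits small changes most, at 66 reads per median carrier peak in the shallowest library.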
